A study of Mus musculus with 3 samples.

Results

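The cytoplasmic ribosomal protein genes were described in 3 polyadenylated RNA libraries of mouse embryonic stem cells: a DAXX knockout, an ATRX knockout and a wildtype, with 1 library of each. The genes were chosen by a rule on their names, set with earlier results of these data known. They are the symbols that begin with Rpl or Rps and a number, with at most a short suffix, together with Rplp0, Rplp1, Rplp2 and Rpsa, and with Rpl10l and Rps27l left out by the rule. This gave 82 of the 24006 gene symbols in the deposited tables. By name, 47 of the 82 belong to the large subunit outside the stalk, 3 to the stalk and 32 to the small subunit. Within these, 5 are called paralogs here, as their names mark them as relatives of another ribosomal protein gene. By name, Rpl3l, Rpl7l1, Rpl22l1 and Rpl39l were counted with the large subunit and Rps4l with the small one. The other 77 are called the core set here.

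The ribosome translates messenger RNA into protein. Its small subunit reads the message, and its large subunit joins the amino acids. Each subunit is a scaffold of ribosomal RNA carrying ribosomal proteins. These proteins are made in the cytoplasm and assembled with ribosomal RNA in the nucleolus. The messages for them usually begin with a C followed by a run of pyrimidines, the 5′ terminal oligopyrimidine (TOP) tract, through which their translation follows growth signals. Fast-dividing cells such as embryonic stem cells hold these messages at high levels. DAXX and ATRX are partners that deposit the histone variant H3.3 at heterochromatin.

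The DAXX knockout cells (genotype DAXX-/-) were clone KO2-3, the ATRX knockout cells (genotype ATRX-/-) clone KO1-44 and the wildtype cells clone WT26, of the C57BL/6x129sV background. Each genotype is thus 1 clone, and a difference between genotypes cannot be told apart from a difference between clones. The cells had been grown with serum and leukaemia inhibitory factor and passaged off irradiated feeder cells before RNA was taken. With 1 library each the genotypes could not be tested against each other, and p-values are not given.

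The libraries held 11224100 reads on transcripts for the DAXX knockout, 13988376 for the ATRX knockout and 13981915 for wildtype. Reads on Daxx numbered 623 in DAXX knockout cells, 972 in ATRX knockout cells and 1125 in wildtype. Reads on Atrx numbered 3576 in DAXX knockout cells, 1800 in ATRX knockout cells and 4582 in wildtype. After scaling, the log2 fold of Daxx in the DAXX knockout over wildtype was -0.44 and that of Atrx in the ATRX knockout over wildtype -1.28. Markers of pluripotent stem cells, among them Pou5f1 and Nanog, had 0 of 8 at 0 and summed to 5727, 5812 and 5354 CPM, read counts rescaled to the same library size, in the DAXX knockout, ATRX knockout and wildtype libraries. The 7 primitive endoderm markers summed to 3.66, 13.6 and 40.03 CPM in the same order, and the 8 fibroblast markers, which would mark feeder cells, to 7.42, 13.0 and 26.8 CPM. Markers at 0 were 1, 0 and 0 of the primitive endoderm list and 4, 4 and 1 of the fibroblast list. The 7 trophoblast markers summed to 84.0, 84.6 and 119 CPM, with 0, 1 and 2 at 0, and the 3 blood markers to at most 0.289 CPM. The primitive endoderm, fibroblast and trophoblast sums were thus lower in the knockouts. The trophoblast markers did not move together. Its keratin genes Krt8, Krt18 and Krt19 were lower in both knockouts. Tfap2c had 50.7, 32.5 and 42.2 CPM in the same order, Eomes 4.85, 4.55 and 4.68, and Cdx2 0.275, 0.939 and 0. Elf5 had at most 0.0916 CPM. The part of all these markers in the results below was not tested.

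As a first view of these genes, their promoters were read from RefSeq on build GRCm38.p6, where 61 of the 82 had an entry, with 72 windows in all. A run of at least 8 C or T bases on the gene's strand lay within 15 bases of the annotated start in 43.1% of the ribosomal protein windows and in 17.6% of 32851 windows of all genes. Each window reaches from 250 bases before the start to 50 after it. The sequences shown run from 60 bases before the annotated start to 30 bases after it, 5′ to 3′ on the gene's strand, and the capitals mark the longest run of C and T near the start. Rpl7a, a large subunit protein gene, is shown because it had the longest run, 21 bases. The others are the genes with a window that passed a threshold of change described below. The windows are chr2:26910747-26910836 on the plus strand for Rpl7a, chr7:141447591-141447680 on the plus strand for Rplp2, chrX:37085193-37085282 on the minus strand for Rpl39, chr10:80292371-80292460 on the plus strand for Rps15, chr10:128549139-128549228 on the minus strand for Rpl41, chr7:99483680-99483769 on the minus strand for Rps3 and chr16:10170168-10170257 on the plus strand for Rpl39l.
Rpl7a: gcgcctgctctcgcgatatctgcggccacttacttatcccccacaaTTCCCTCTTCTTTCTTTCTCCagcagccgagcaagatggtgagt
Rplp2: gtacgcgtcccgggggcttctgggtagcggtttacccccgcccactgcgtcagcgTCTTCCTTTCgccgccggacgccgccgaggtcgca
Rpl39: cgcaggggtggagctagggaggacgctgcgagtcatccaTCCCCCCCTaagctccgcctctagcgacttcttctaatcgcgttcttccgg
Rps15: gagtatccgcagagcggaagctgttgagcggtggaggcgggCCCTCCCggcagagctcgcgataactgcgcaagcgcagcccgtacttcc
Rpl41: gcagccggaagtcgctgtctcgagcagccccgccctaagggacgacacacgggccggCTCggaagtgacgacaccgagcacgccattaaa
Rps3: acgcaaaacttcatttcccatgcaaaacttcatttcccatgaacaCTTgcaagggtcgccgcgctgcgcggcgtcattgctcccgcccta
Rpl39l: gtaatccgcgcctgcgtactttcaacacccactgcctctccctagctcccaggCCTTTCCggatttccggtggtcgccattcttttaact
The runs in this set are 21 bases in Rpl7a, 10 in Rplp2, 9 in Rpl39, 7 in Rps15 and Rpl39l, and 3 in Rpl41 and Rps3. In Rpl39, Rps15, Rpl39l, Rpl41 and Rps3 the run ends before the annotated start, outside the message by that annotation. A run is thus not by itself a TOP tract. For Rplp2, Rpl39 and Rpl41 the annotated start lay 281, 180 and 137 bases downstream of the 5′ end in GENCODE M21. In the whole windows, searched on both strands, CCGGAAG or its reverse complement CTTCCGG was in 36.1% of the ribosomal protein windows and in 8.86% of all windows. ATGGCGG or CCGCCAT was in 18.1% of the ribosomal protein windows and in 4.05% of all windows. CTTTCC or GGAAAG was in 48.6% of the ribosomal protein windows and in 26.6% of all. The pyrimidine run and CTTTCC can overlap, as they do in Rpl39l. These are matches of letters, not binding sites.

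The ribosomal protein genes took up a large and similar share of each library. They received 8.38% of transcript reads in the DAXX knockout (95% exact Clopper-Pearson interval 8.36 to 8.39), 8.75% in the ATRX knockout (8.74 to 8.77) and 8.15% in wildtype (8.14 to 8.17). These intervals, like all those given below, cover counting error only. The 3 shares did not overlap in counting error and stood highest in the ATRX knockout. A typical member was deeply covered, with a median of 9909 reads in DAXX knockout cells, 13078 in ATRX knockout cells and 12091 in wildtype.

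Levels of different genes were compared per length, in TPM, the reads on a transcript divided by its length and rescaled to the same total in each library. All 77 core genes had at least 500 TPM in both knockouts and in wildtype. The core median was 2393 TPM in DAXX knockout cells, 2468 in ATRX knockout cells and 2290 in wildtype. The median over all 24006 symbols was 1.26, 1.43 and 1.71 TPM in the same order. That median includes symbols without a read: 16024, 16446 and 17048 symbols had at least 1. Core levels lay close together: the 90th percentile was 2.96 times the 10th in the DAXX knockout, 3.11 times in the ATRX knockout and 2.92 times in wildtype. The median of small subunit core genes was 2505, 2661 and 2335 TPM in the DAXX knockout, ATRX knockout and wildtype. That of large subunit core genes, with the stalk genes included, was 2360, 2334 and 2174 TPM in the same order.

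The highest level belonged to Rplp1, an acidic protein of the stalk that recruits elongation factors, with 5546 TPM in DAXX knockout cells, 5877 in ATRX knockout cells and 5057 in wildtype. Rps2, of the small subunit near the entry of the message, had 5249, 5544 and 4987 TPM in the same order. Rps24, a small subunit gene mutated in some patients with Diamond-Blackfan anaemia, had 5065, 5257 and 4722 TPM. These 3 genes are the top of the order, and in each the ATRX knockout was highest and wildtype lowest.

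The bottom of the order was set by the paralogs. Rpl3l, the form of Rpl3 found in heart and skeletal muscle, had 1.19 TPM in DAXX knockout cells, 1.16 in ATRX knockout cells and 2.89 in wildtype. Rpl39l, the form of Rpl39 known from male germ cells, had 6.52, 15.4 and 20.2 TPM in the same order. Rpl7l1, a distant relative of Rpl7, had 177, 165 and 177 TPM. Rpl22l1 had 269.5, 241 and 331 TPM. Rps4l had 555, 442 and 650.5 TPM, in the same range as the lowest core gene, Rps20, at 561, 599 and 581 TPM. The only listed transcript of Rps20 is 3706 bases long, and its TPM rests on that length. Without regard to length, Rps20 had 1125, 1202 and 1082 CPM and Rps4l 283, 225 and 308 CPM.

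**Figure D1:**
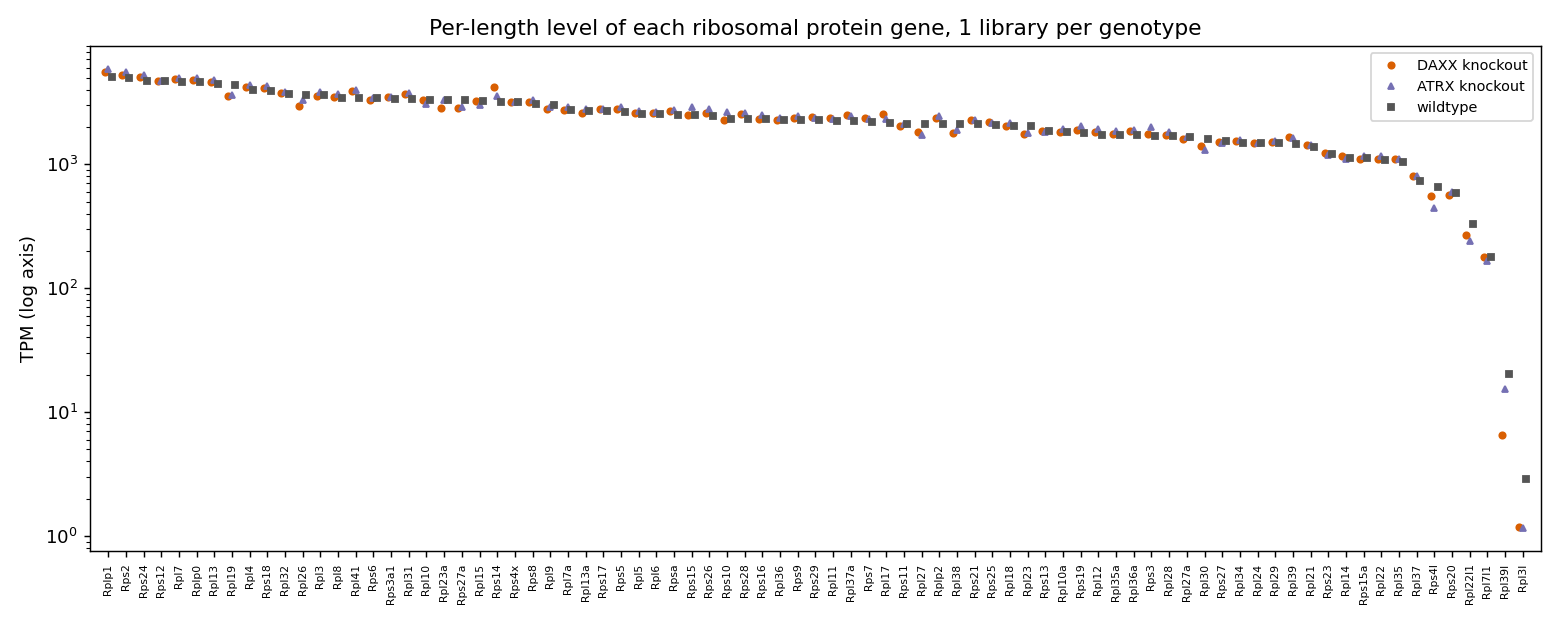
Level of 81 ribosomal protein genes in TPM on a log axis, ordered by level, with 1 point per library: DAXX knockout (circles), ATRX knockout (triangles) and wildtype (squares). The 76 core genes drawn sit above 500 TPM, and Rpl39l and Rpl3l lie far below the rest.

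Between libraries, 70 of 82 members had a log2 fold above 0 over wildtype in each knockout, by small amounts. Of all genes tested, 53.1% did so in DAXX knockout cells and 52.2% in ATRX knockout cells. Among genes with a mean of at least 100 CPM these shares were 73% and 58.6%. Without the 5 paralogs, left out after the values were seen, 69 of 77 core genes were above 0 in each knockout. Each gene's fold was taken between libraries scaled with the trimmed mean of M values, TMM, and a gene was called when the whole 95% counting interval of its fold lay beyond 2-fold. By that rule 0 of 82 members were called in the DAXX knockout over wildtype, against 2.04% of 13151 genes tested. In the ATRX knockout over wildtype 0 of 82 were called, against 1.84% of 13230 genes. Between the knockouts, ATRX over DAXX, 0 of 81 were called, against 1.13% of 12991 genes. A second rule with the interval beyond 1.2-fold, or 0.26 on the log2 scale, is used for the changes named below, and "rose" and "fell" refer to it.

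The median log2 fold of the members was 0.13 in the DAXX knockout over wildtype, where that of all measured genes was 0.03. It was 0.17 in the ATRX knockout over wildtype, where that of all measured genes was 0.02. Both comparisons share the wildtype library, so a value particular to that library enters both. In each comparison 70 of 82 members had a log2 fold above 0, where 53.1% of genes tested did in DAXX knockout cells and 52.2% in ATRX knockout cells. Highly expressed genes as a whole also leaned that way in the DAXX knockout: among genes with a mean of at least 100 CPM, 73% were above 0, and 70 of the 79 members there. In the ATRX knockout these were 58.6% of such genes and 70 of the 79 members. The size of this lean depends on the scaling. With libraries scaled to total transcript reads, 57 of 82 members were above 0 in the DAXX knockout, with a median of 0.03 beside -0.07 for all genes, and 67 of 82 in the ATRX knockout, with a median of 0.10 beside -0.05. In bulk RNA a different share of ribosome-rich cells and a different amount of message per cell cannot be told apart.

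By part of the ribosome, the median log2 fold in the DAXX knockout over wildtype was 0.12 for the 43 large subunit core genes outside the stalk, 0.24 for the 3 stalk genes and 0.16 for the 31 small subunit core genes. The corresponding medians in the ATRX knockout over wildtype were 0.17, 0.31 and 0.22. The stalk genes were the highest of the parts in both comparisons, and the 5 paralogs the lowest, with medians of -0.19 in DAXX knockout cells and -0.35 in ATRX knockout cells.

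**Figure D2:**
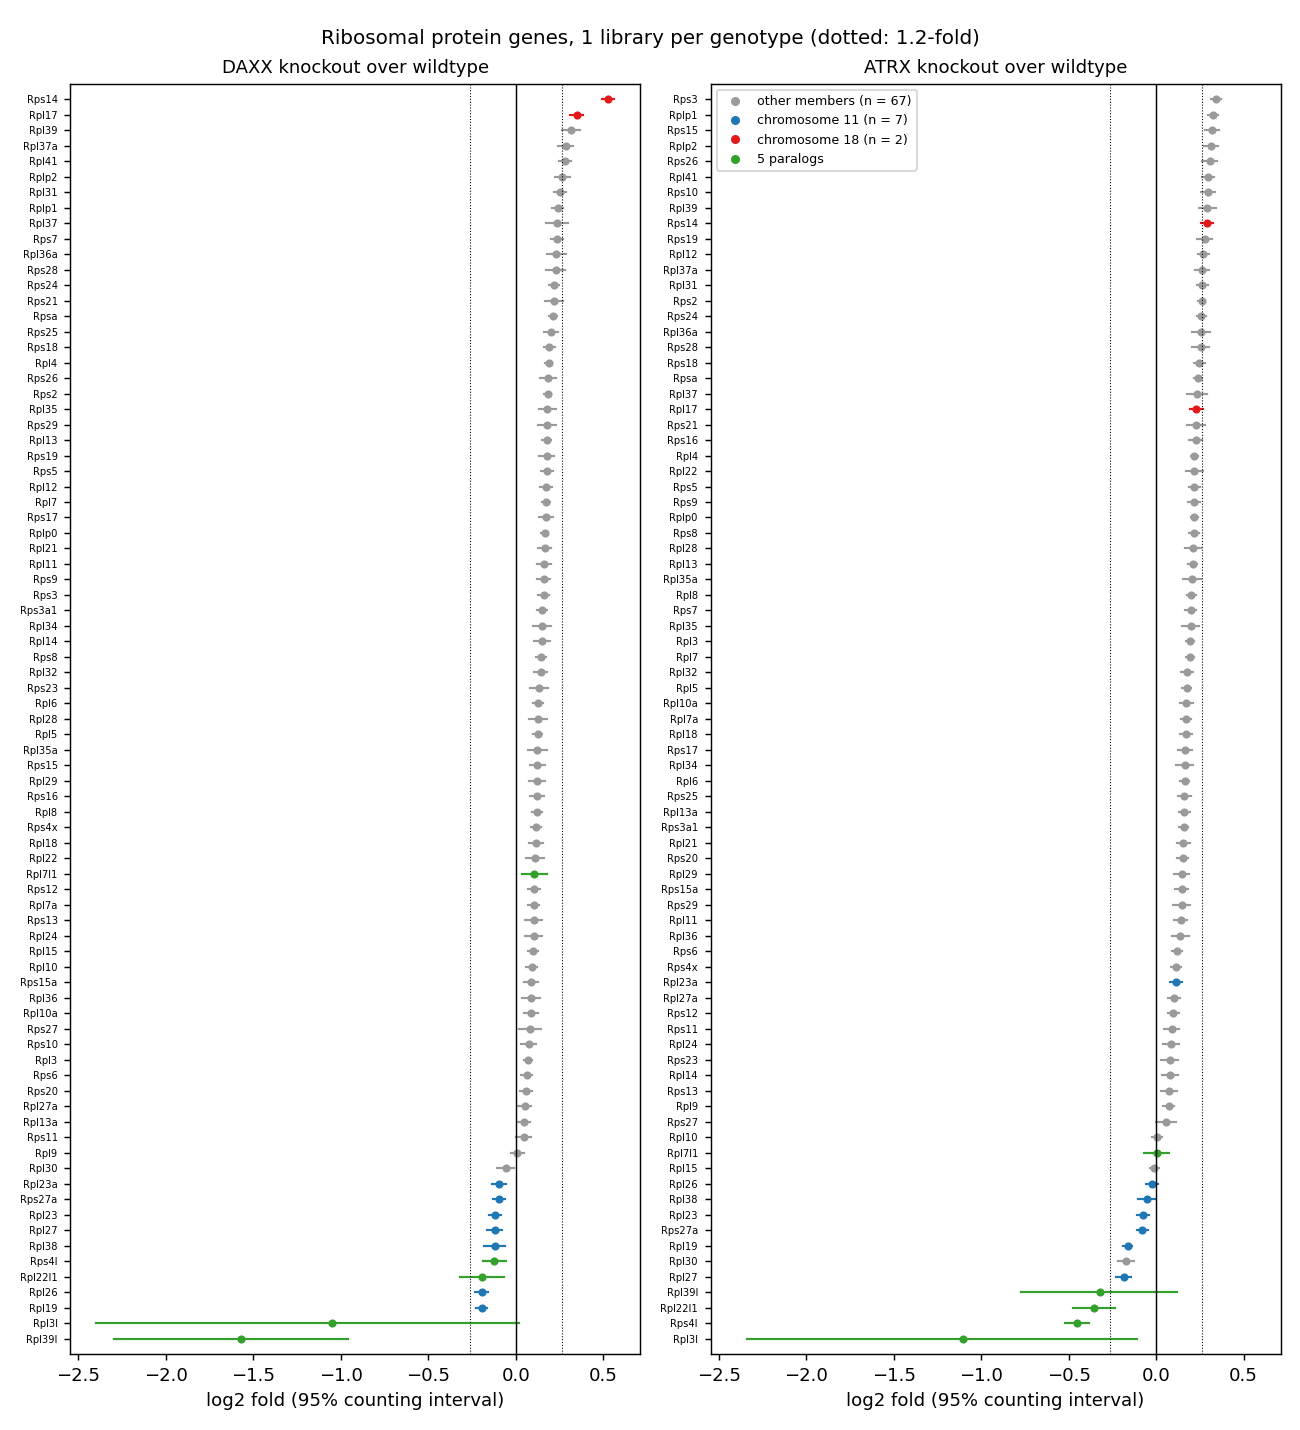
Log2 fold of 81 ribosomal protein genes over wildtype in the DAXX knockout (left) and the ATRX knockout (right), sorted within each panel, with 95% counting intervals, and dotted lines at 1.2-fold. Most core genes lie in a narrow band above 0, while the genes of chromosome 11 (blue) and 4 of the 5 paralogs (green) lie below it, apart from Rpl23a in the ATRX knockout.

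In the DAXX knockout, 3 of 82 members rose by the 1.2-fold rule and 1 fell. Of all 13151 genes tested, 5.59% rose and 6.27% fell, and the members' counts make up a smaller share in each direction. Rps14, a small subunit protein whose gene is lost in a form of myelodysplastic syndrome, had 14251 reads in DAXX knockout cells, 15321 in ATRX knockout cells and 13128 in wildtype, or 1305, 1106 and 904 CPM. In CPM the DAXX knockout was the highest library and wildtype the lowest. The log2 fold in the DAXX knockout was 0.53 (0.49 to 0.56), or 1.44-fold. Rpl17, which lines the exit tunnel of the large subunit, had 1060 CPM in DAXX knockout cells, 976 in ATRX knockout cells and 832 in wildtype, and its log2 fold in the DAXX knockout was 0.35 (0.31 to 0.39). Both genes lie on chromosome 18, which is taken up below.

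Rpl39, a very small protein of the exit tunnel encoded on the X chromosome, had 552 CPM in DAXX knockout cells, 544 in ATRX knockout cells and 444 in wildtype. The 2 knockouts lay close to each other and above wildtype. The log2 fold was 0.31 (0.26 to 0.37) for the DAXX knockout, just inside the rule, and the call was lost under 4 other settings and when the median of its chromosome was subtracted. Just outside the rule were Rpl37a, with a log2 fold of 0.29 in the DAXX knockout over wildtype, and Rpl41, with 0.28 (0.24 to 0.32). The other 3 members of the X chromosome were within 1.2-fold, with log2 folds of 0.23 for Rpl36a, 0.12 for Rps4x and 0.09 for Rpl10.

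In the ATRX knockout over wildtype, 6 of 82 members rose and 1 fell, against 7.97% and 7.02% of 13230 genes tested, so the share of members that rose was near the background. Those described here are genes of the stalk, of the small subunit and Rpl41.

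The stalk genes Rplp1 and Rplp2 rose in the ATRX knockout. Rplp1 had 1485 CPM in DAXX knockout cells, 1575 in ATRX knockout cells and 1258 in wildtype, with a log2 fold of 0.32 (0.30 to 0.35) in the ATRX knockout. Rplp2 had 738, 762 and 614 CPM in the same order, with a log2 fold of 0.31 (0.27 to 0.35). Rplp0, which anchors Rplp1 and Rplp2 to the ribosome, had 2917, 3025 and 2602 CPM and a log2 fold of 0.22 in the ATRX knockout, within 1.2-fold. In all 3 stalk genes both knockouts stood above wildtype. The call of Rplp1 was lost under total-read scaling. That of Rplp2 was lost there, with median-of-ratios size factors, with the most abundant transcript alone and when the median of its chromosome was subtracted.

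Rps3, Rps15 and Rpl41 also rose in the ATRX knockout. Rps3, a small subunit protein at the channel where the message enters, had 1346 CPM in DAXX knockout cells, 1528 in ATRX knockout cells and 1205 in wildtype, and a log2 fold of 0.34 (0.31 to 0.37). Rps15, of the head of the small subunit, had 718, 823 and 659 CPM in the same order, and a log2 fold of 0.32 (0.28 to 0.36). Rpl41, a very short protein, had 1095, 1109 and 902 CPM, and a log2 fold of 0.30 (0.27 to 0.33). For Rps3 and Rps15 the DAXX knockout lay between the others, and for Rpl41 the knockouts were nearly level. The calls of all 3 were lost under total-read scaling, those of Rps15 and Rpl41 also when the chromosome median was subtracted, and that of Rpl41 also with median-of-ratios size factors and the most abundant transcript alone. Rps26 was just outside the rule, with a log2 fold of 0.31 in the ATRX knockout.

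Of the 5 paralogs, 4 had log2 folds below 0 in both knockouts. Rpl39l had 25 reads in DAXX knockout cells, 77 in ATRX knockout cells and 101 in wildtype, or 2.29, 5.56 and 6.96 CPM. It fell in the DAXX knockout, with a log2 fold of -1.57 (-2.30 to -0.96), the largest difference of any member over wildtype. Its log2 fold of -0.32 (-0.77 to 0.12) in the ATRX knockout did not pass the rule. Its interval in the DAXX knockout stopped just short of 2-fold, and it passed that rule under total-read scaling, with the most abundant transcript alone and after subtraction of the chromosome's median.

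Rps4l was the member that fell in the ATRX knockout. It had 3092 reads in DAXX knockout cells, 3121 in ATRX knockout cells and 4475 in wildtype, or 283, 225 and 308 CPM. Its log2 fold in the ATRX knockout was -0.45 (-0.52 to -0.39), and in the DAXX knockout -0.12 (-0.19 to -0.06). Rps4l lies on chromosome 6 at positions 148354656 to 148355598 (GRCm38, plus strand), a span of 943 bases equal to the length of its listed transcript, which GENCODE M21 annotates as a processed transcript and not as protein coding. Rpl22l1 had 859, 974 and 1305 reads in the DAXX knockout, ATRX knockout and wildtype. For Rpl22l1 the log2 fold was -0.19 (-0.32 to -0.07) in DAXX knockout cells and -0.35 (-0.48 to -0.23) in the ATRX knockout. Neither was called by the 1.2-fold rule, though the ATRX estimate itself lay beyond 1.2-fold. The ATRX fold passed the rule under total-read scaling and after thinning. Rpl3l rested on 9, 11 and 26 reads, and its intervals, -2.40 to 0.02 in the DAXX knockout and -2.34 to -0.11 in the ATRX knockout, were too wide for a call. Rpl7l1 had log2 folds of 0.11 and 0.00 in the DAXX and ATRX knockouts.

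Set against its partner gene, each of these paralogs was a smaller part of the pair in the knockouts. Rpl22l1 made up 19.6% of the TPM of Rpl22 and Rpl22l1 in DAXX knockout cells, 17.2% in ATRX knockout cells and 23.6% in wildtype. In mouse, Rpl22l1 is known to be raised when Rpl22 is lost. Here Rpl22 had 488, 527 and 452 CPM in the same order, with log2 folds of 0.11 in DAXX knockout cells and 0.22 in ATRX knockout cells. The 2 genes thus had folds of opposite sign in both comparisons. This was not particular to them: it also held for Rpl3l, Rpl39l and Rps4l with their partners, though not for Rpl7l1, and most core genes were above 0. A link between Rpl22 and Rpl22l1 was not tested. Rps4l made up 14.9%, 12.2% and 17.1% of its pair with the X-linked Rps4x, whose log2 folds were 0.12 and 0.11. Rpl39l made up 0.390%, 0.928% and 1.38% of its pair with Rpl39, and Rpl3l 0.0337%, 0.0303% and 0.0799% of its pair with Rpl3. Rpl7l1 showed the smallest difference, with 3.53%, 3.24% and 3.69% of its pair with Rpl7. These 5 pairs had no 50-base stretch in common, and their longest identical stretch ran from 11 to 38 bases.

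Of 3 relatives outside the naming rule, Rps27l made up 35.5% of its pair with Rps27 in DAXX knockout cells, 39.01% in ATRX knockout cells and 36.2% in wildtype. Rpl36al made up 26.2%, 24.3% and 28.6% of its pair with Rpl36a in the same order. Rpl10l, a germ cell relative of Rpl10, made up 0.156%, 0.156% and 0.715% of that pair, from 31, 37 and 178 reads. Rps27l was thus the one relative of the 8 whose share was highest in a knockout library.

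**Figure D3:**
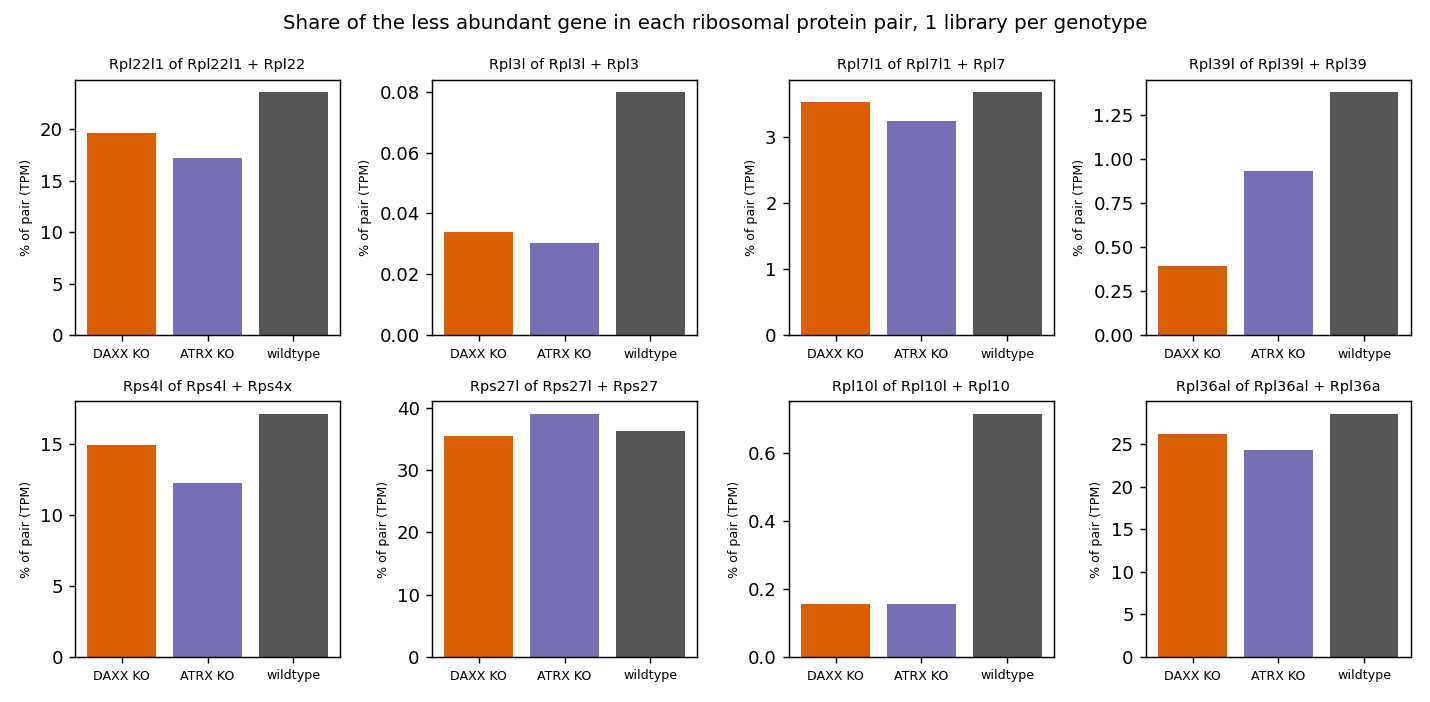
Share of the less abundant gene in the summed TPM of each of 8 ribosomal protein gene pairs, with 1 bar per library in the order DAXX knockout, ATRX knockout and wildtype, on axes that start at 0 and differ between panels. Wildtype has the tallest bar in 7 of the panels, and the ATRX knockout in that of Rps27l.

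Of the 8 core genes below wildtype in the DAXX knockout, 7 lie on chromosome 11, and the 2 highest lie on chromosome 18. All 7 core genes on chromosome 11 had a log2 fold below 0 in the DAXX knockout, with a median of -0.12, and 6 of the 7 in the ATRX knockout, with a median of -0.07. The other genes of chromosome 11 were lower too: the median log2 fold of 1023 of them was -0.24 in the DAXX knockout, with 17.7% above 0, and that of 1041 was -0.24 in the ATRX knockout, with 23.2% above 0. On chromosome 18 the median of 320 other genes was 0.32 in the DAXX knockout, with 80.9% above 0, and of 321 other genes 0.06 in the ATRX knockout. The 2 ribosomal protein genes there, Rps14 and Rpl17, had median log2 folds of 0.44 in DAXX knockout cells and 0.26 in ATRX knockout cells. On the other 18 chromosomes, the medians of other genes lay between 0.00 and 0.09 in the DAXX knockout and between -0.01 and 0.07 in the ATRX knockout.

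Rpl19, a large subunit protein that forms a bridge between the subunits, was the lowest core gene in the DAXX knockout. It had 1421 CPM in DAXX knockout cells, 1454 in ATRX knockout cells and 1627 in wildtype, with log2 folds of -0.20 (-0.23 to -0.17) and -0.16 (-0.19 to -0.14) in the DAXX and ATRX knockouts. Rpl26, a large subunit protein also known to bind p53 mRNA, had 902, 1015 and 1032 CPM in the same order, and log2 folds of -0.19 and -0.02. Rpl27 had 653, 624 and 710 CPM and log2 folds of -0.12 and -0.18. Wildtype was the highest library for each of these 3 genes. Rpl23, which binds the p53 regulator MDM2, had log2 folds of -0.12 and -0.07, and Rpl38, known in mouse for its part in patterning the axial skeleton, -0.12 and -0.05. Rps27a, made as a fusion with ubiquitin, had -0.10 and -0.08. Rpl23a, at the tunnel exit, had -0.10 and 0.11, and was the chromosome 11 gene above 0 in the ATRX knockout.

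When each gene's fold was taken relative to the median of the other genes on its chromosome, the core genes drew together. Their standard deviation in log2 fold in the DAXX knockout was 0.068 with that subtraction and 0.118 without it. It was 0.090 in the ATRX knockout with the subtraction and 0.118 without it. After the subtraction 75 of 77 core genes were above 0 in each knockout, with medians of 0.12 and 0.16, and this included all 7 of chromosome 11, at 0.05 to 0.15 in the DAXX knockout. Rps14 stood 0.20 and Rpl17 0.02 above the median of chromosome 18 in the DAXX knockout, and neither then passed the 1.2-fold rule. In the ATRX knockout over wildtype 4 members were higher and 1 lower by that rule after the subtraction, with Rpl23a added at 0.35 (0.31 to 0.38). Without chromosomes 11 and 18 the remaining 68 core genes had a median log2 fold of 0.15 in the DAXX knockout, with 67 above 0, and 0.20 in the ATRX knockout, with 66 above 0. With the paralogs kept, 68 and 67 of 73 members were above 0. On those 18 chromosomes, 50.5 to 65.5% of a chromosome's other genes were above 0 in the DAXX knockout and 48.4 to 61.5% in the ATRX knockout. The subtraction and the leaving out of chromosomes and paralogs were added after the values were seen.

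The lowest core gene once chromosomes were taken into account was Rpl30, a large subunit protein that binds RNA, on chromosome 15. It had 5919 reads in DAXX knockout cells, 6950 in ATRX knockout cells and 8194 in wildtype, or 542, 502 and 564 CPM. Its log2 folds of -0.06 in DAXX knockout cells and -0.17 in ATRX knockout cells became -0.08 and -0.23 relative to its chromosome. Rpl9 and Rpl15 had log2 folds of 0.01 and 0.10 in the DAXX knockout and 0.07 and -0.01 in the ATRX knockout. Relative to their chromosomes, these became -0.01 and 0.01 in the DAXX knockout and 0.07 and -0.06 in the ATRX knockout.

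**Figure D4:**
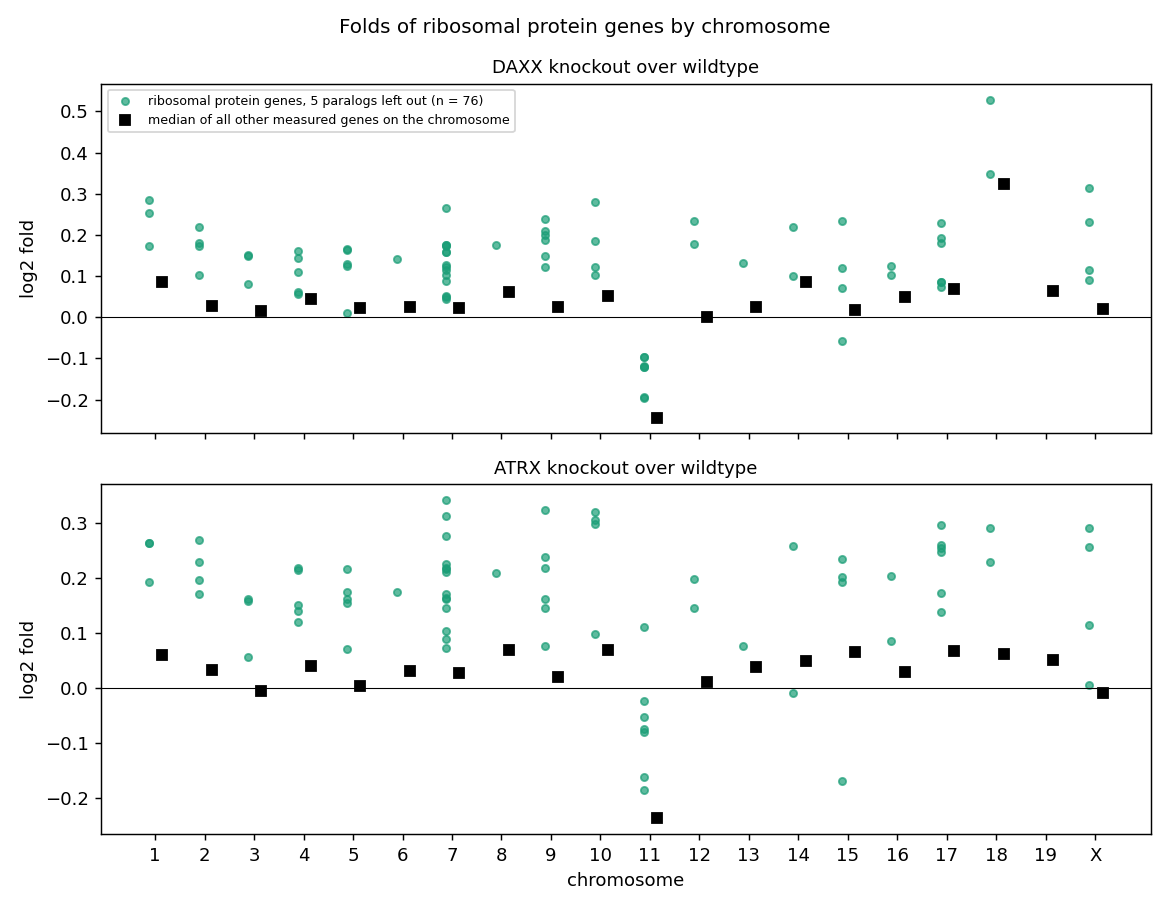
Log2 fold over wildtype of 76 core ribosomal protein genes (circles) by chromosome, with the median of the other measured genes of each chromosome (squares), in the DAXX knockout (upper panel) and the ATRX knockout (lower panel). The genes of chromosome 11 lie below 0 with their chromosome, except Rpl23a in the ATRX knockout, and those of chromosome 18 are the highest in the DAXX knockout.

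Between the 2 knockouts the members' folds were small, apart from that of Rpl39l. In the ATRX knockout over the DAXX knockout, 57 of 81 members were above 0, against 50.6% of 12991 genes, and the median log2 fold was 0.03, against 0.00 for all measured genes. Among genes with a mean of at least 100 CPM, 39.4% were above 0 and 56 of the 79 members. By the 1.2-fold rule 1 of 81 members rose and 0 fell, against 6.85% and 5.07% of genes tested. The gene that rose was Rpl39l, at 1.25 (0.61 to 1.99), or 2.38-fold, from 77 reads in the ATRX knockout and 25 in the DAXX knockout. The next highest log2 folds were 0.22 for Rps10, of the small subunit, 0.21 for Rpl23a, 0.20 for Rps15 and 0.18 for Rps3. The lowest were -0.33 (-0.40 to -0.26) for Rps4l, -0.24 for Rps14, -0.16 for Rpl22l1, -0.12 for Rpl17 and -0.11 for Rpl30. Rps14 and Rpl17 lay with the other genes of chromosome 18, whose median was -0.29 in this comparison.

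Other genes of the ribosome and its production were read from lists of genes with a known role there, and the background percentages given above apply to them too. Of 8 ribosomal protein symbols outside the naming rule, 7 were listed. By the 1.2-fold rule 1 was lower and 0 were higher in DAXX knockout cells, and in ATRX knockout cells 1 was lower and 1 higher. The gene that fell was Rpl10l, also past 2-fold, with log2 folds of -2.08 (-2.71 to -1.55) and -2.17 (-2.75 to -1.68) over wildtype. Fau, which carries a small subunit protein, had log2 folds of 0.21 in the DAXX knockout over wildtype and 0.24 in the ATRX knockout over wildtype, both within the rule. Gnb2l1, listed under the older symbol of the small subunit scaffold protein Rack1 on chromosome 11, had log2 folds of -0.11 and -0.08, and so stood with the chromosome 11 members.

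Of 16 translation and TOP genes, 1 rose in the DAXX knockout and 5 rose in the ATRX knockout, with 0 lower in either, and the medians were 0.17 and 0.21. Of all genes tested, 5.59% and 7.97% rose. Those include genes near 1 CPM, whose intervals are wider, while the lowest value here was 202 CPM, for Eif3f in wildtype. Above 0 were 15 and 13 of the 16, where 73% and 58.6% of genes with a mean of at least 100 CPM were. Pabpc1, the poly(A) binding protein, had 2148 CPM in DAXX knockout cells, 2376 in ATRX knockout cells and 1703 in wildtype, and rose in both, with log2 folds of 0.33 and 0.48. Eef2, the factor that moves the ribosome along the message, had 2896, 3615 and 2667 CPM in the same order, and rose in the ATRX knockout over wildtype (0.44) and over the DAXX knockout (0.32). Eef1a1, which brings charged tRNA, rose by 0.28 in the ATRX knockout. Npm1, a nucleolar protein on chromosome 11, was at -0.08 and -0.14, within the rule.

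The genes that assemble the ribosome did not have the members' medians. Of 52 ribosome assembly factors tested, 26 were above 0 in DAXX knockout cells and 10 in ATRX knockout cells, with median log2 folds of 0.00 and -0.14. Those that fell in the ATRX knockout were Heatr1 (-0.46) and Rrp12 (-0.46), which act in small subunit processing, and Pno1 (-0.43). In the DAXX knockout Utp18 fell, at -0.37. It lies on chromosome 11, whose other genes had a median of -0.24 there. In the same comparison Nop58, of the box C/D small nucleolar ribonucleoprotein, was at 0.31 and was not called, as its interval reached inside 1.2-fold. It fell in the ATRX knockout over the DAXX knockout, at -0.47. Of 20 genes of RNA polymerase I and its factors, 0 were called in the DAXX knockout and Polr1b, a catalytic subunit, fell in the ATRX knockout, at -0.48, and the medians were 0.04 and -0.10. The 77 mitochondrial ribosomal protein genes, which belong to a separate ribosome, had medians of -0.05 and -0.10, with 1 lower in DAXX knockout cells and 2 in ATRX knockout cells. Of 13 small nucleolar RNA host genes, 7 were tested, 0 were called in any comparison, and the medians were 0.22 and 0.02.

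Of 21 regulators of ribosomal protein production, 1 rose in the DAXX knockout and 4 fell in the ATRX knockout. Eif4ebp1, which blocks cap-dependent translation, rose in the DAXX knockout, at 0.33. Mycn, a transcription factor that drives growth genes, had 128 CPM in DAXX knockout cells, 97.3 in ATRX knockout cells and 160.1 in wildtype, and fell in the ATRX knockout, at -0.72. Myc had 36.4, 23.8 and 33.2 CPM in the same order and also fell there, at -0.48. Larp1, which binds the TOP tract, fell at -0.54, and Rps6kb1, the kinase of ribosomal protein S6, at -0.41. Of the 11 genes of these lists that fell in the ATRX knockout over wildtype, 5 lie on chromosome 11: Pno1, Larp1, Rps6kb1, Mrpl10 and Mrps7.

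**Figure D5:**
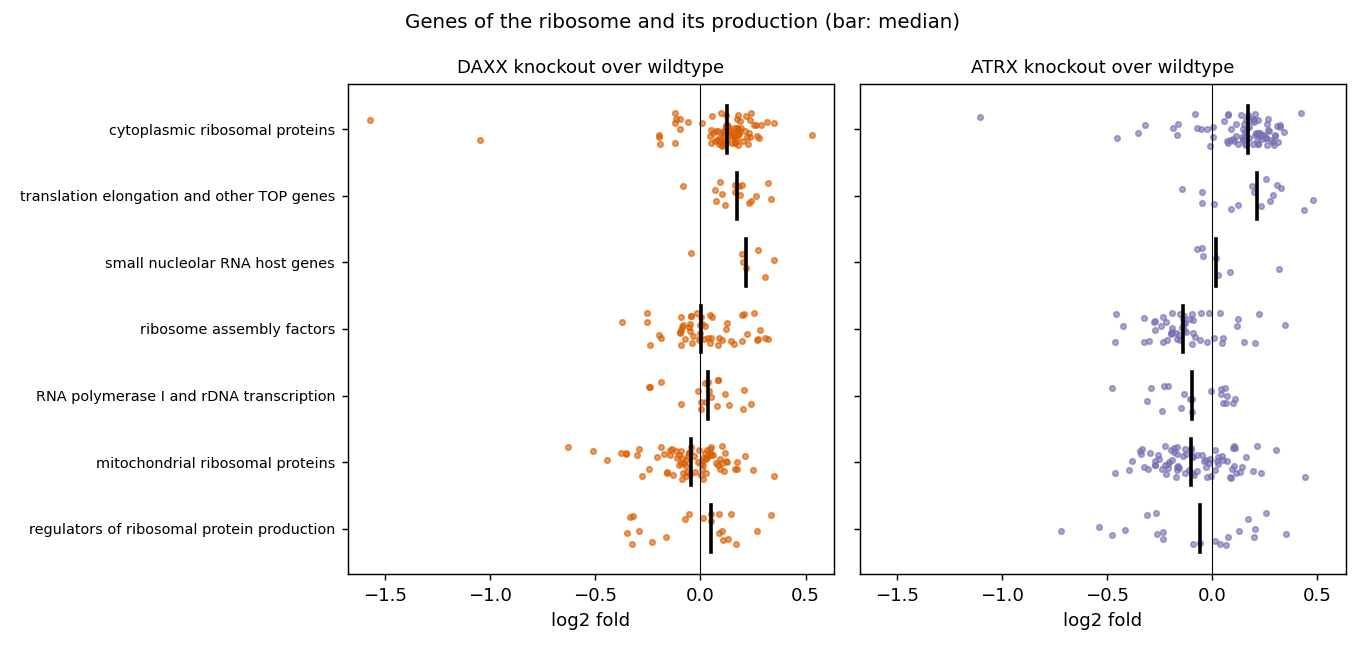
Log2 fold over wildtype of each measured gene in 7 lists of the ribosome and its production, in the DAXX knockout (left) and the ATRX knockout (right), with a black bar at each list's median. The medians of the cytoplasmic ribosomal proteins (0.13 and 0.17) and the translation and TOP genes (0.17 and 0.21) lie to the right of 0 in both panels, and those of the assembly factors at 0.00 and -0.14.

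Transcripts of 1 gene share much of their sequence, and how reads that match several of them were placed is not given in the sources used here, so the deposited counts do not measure the mixture of transcripts within a gene independently of that placement. Over the 42 members with more than 1 transcript and at least 200 wildtype reads, covering 147 transcripts, the largest difference in a transcript's share of its gene was 2.07 percentage points between the DAXX knockout and wildtype and 1.68 points between the ATRX knockout and wildtype. The median over transcripts was 0.360 and 0.396 points. Some members share long stretches with other listed symbols, so that their values are uncertain. In 9 members at least 10% of 50-base words also occurred elsewhere, among them Rps27 with 98.6%, shared with Rps27rt, Rpl22l1 with 51.9%, Rpl14 with 49.3% and Rplp2 with 30.7%. Reads from retrocopies that the tables do not list could also have been placed on these genes.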

How the data were processed

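The values used were the deposited read counts per transcript, in tables of the layout that SAMtools idxstats writes, 1 per library, with no normalization. Bowtie 1.1.2, SAMtools and build GRCm38.p4 were used, per the submitters' processing notes; the sources used here do not give alignment settings, strand or annotation release. Counts of 48843 transcripts were summed per symbol, the 1564 repeat sequences were left out, and libraries were scaled by TMM (edgeR 4.0.16, R 4.3.3), with factors of 0.973 for the DAXX knockout, 0.990 for the ATRX knockout and 1.04 for wildtype. Genes with at least 1 CPM in 1 of the compared libraries were tested. Folds carry a prior count of 1, and intervals are exact conditional binomial ones. With 1 library per genotype, residual degrees of freedom were 0. Medians are over genes with a mean of at least 1 CPM. TPM is the deposited count over transcript length, summed per symbol. Positions are from GENCODE M21 (GRCm38), with Gnb2l1 found in RefSeq by synonym. The calling was tested on simulated data that held counting error alone, so the test does not cover variation between cultures or clones. Members and lists were chosen with earlier results of these data known. Members named are those called, the highest and lowest 5 by fold and by level, and the pairs. Other lists' genes were named by extreme fold, or, after their values were seen, because they were called. Values of 2 genes, 1 of them a member, are not reported here; they remain in the counts and medians.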

Additional observations from a re-analysis of the deposited data

How the results depend on the processing

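Over single members and the settings planned for them, 1530 results kept their call or moved by less than counting error, 172 moved further, 14 lost a call and 6 gained one. Of 84 results for called members 0 changed sign, and of 1638 for members not called 36 did. Under total-read scaling, members beyond 2-fold in the DAXX knockout over wildtype were 1, those beyond 1.2-fold 2, and the median log2 fold 0.0338; in the ATRX knockout over wildtype those beyond 1.2-fold were 3 and the median 0.10. That setting ended the calls of Rpl17 and Rpl39 in the DAXX knockout and of Rpl41, Rplp1, Rplp2, Rps15 and Rps3 in the ATRX knockout. Median-of-ratios size factors and the most abundant transcript alone each ended those of Rpl39, Rpl41 and Rplp2. With the most abundant transcript alone, 1 member passed 2-fold in the DAXX knockout over wildtype, and the members' summed TPM was 211337 in DAXX knockout cells, 216845 in ATRX knockout cells and 207358 in wildtype. Median-of-ratios size factors and thinning each gave 2 members beyond 1.2-fold in the ATRX knockout over the DAXX knockout. Of all aligned reads, members held 8.29% in DAXX knockout cells, 8.69% in ATRX knockout cells and 8.09% in wildtype.

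Settings added after the data were seen gave the following. With the chromosome median subtracted, 1 member passed 2-fold and 1 passed 1.2-fold in the DAXX knockout over wildtype, and 2 passed 1.2-fold in the ATRX knockout over the DAXX knockout. The calls of Rps14, Rpl17 and Rpl39 in the DAXX knockout and of Rpl41, Rplp2 and Rps15 in the ATRX knockout ended, and Rpl23a in the ATRX knockout over wildtype and Rps4l in the ATRX knockout over the DAXX knockout gained one. Without chromosomes 11 and 18, 2 passed 1.2-fold in the DAXX knockout over wildtype. Without the 5 paralogs, 0 passed 1.2-fold in the ATRX knockout over the DAXX knockout. No paired analysis was possible because each genotype had 1 library with no replicate number. Depth limits Rpl3l and Rpl39l; for the core genes counting error is small, and the spread between cultures was not measured.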
